A study of Bactrocera dorsalis with 3 samples.

Results

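In the oriental fruit fly Bactrocera dorsalis, embryos taken 2-4 hours after egg laying (2-4 hours post-oviposition, hpo) were set against newly laid eggs at 0-1 hpo. Each age had 1 library of poly-T selected RNA from whole embryos, with no statement of strain, sex or number of embryos in the sources used here. All genes with a level of at least 1 FPKM in either library were compared, 7310 of the 13489 gene models in the deposited tables. FPKM, the unit of level used throughout, divides the fragments of a gene by transcript length and library total. The last gene inside this limit had 1.00 FPKM in its higher library and the first outside had 0.999 FPKM.

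A fly egg is laid with RNA that the mother placed in it. In Drosophila melanogaster, the best studied fly, the first nuclei divide within a shared cytoplasm with little transcription of their own. Maternal transcripts are then degraded in waves while the embryo's genome is switched on. Among the earliest genes that Drosophila embryos transcribe, many are short and have no intron.

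The 2-4 hpo library held 65069185 reads assigned to genes and the 0-1 hpo library 68140879. For a gene without reads, 3 reads mark the upper limit, 0.0461 RPM (reads scaled to the library total) at 2-4 hpo and 0.0440 RPM at 0-1 hpo. The range in brackets after a fold is its 95% interval by an exact conditional binomial calculation on the read counts. Such ranges and limits cover counting error only. With 1 library per age there is no replicate check, so differences are described by size and no p-value is given. In whole embryos fewer cells with a transcript and less of it per cell cannot be told apart, and after poly-T selection neither can less RNA and a shorter poly-A tail. Of marker genes for later tissues, the opsin gene Rh1 and the gene CP391 had 0 reads in both libraries. The esterase gene EST3A was below 1 FPKM at both ages. The yolk protein gene VIT1, taken as a marker of the mother's tissue, stood at 3.02 FPKM at 2-4 hpo and 1.58 FPKM at 0-1 hpo.

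Losses were common and of limited size, while gains were rare and included the largest differences. At 2-4 hpo 605 of the 7310 genes (8.28%) were at least 4-fold lower than in newly laid eggs, and 126 (1.72%) were at least 4-fold higher, on FPKM + 1. At 2-fold there were 1721 lower genes (23.5%) and 406 higher genes (5.55%). The balance turned with size. Past 8-fold stood 68 higher and 117 lower genes, past 16-fold 43 higher and 9 lower, and past 32-fold 35 higher and 0 lower. Differences of at least 64-fold were found in 21 genes, all of them higher at 2-4 hpo. Between all genes compared, the median difference on log2(FPKM + 1) was -0.21. Scaling the libraries by the median of ratios, which centres the typical ratio on 1, put this median at 0.018, near 0 by construction. The 2-fold counts then became 644 higher and 1410 lower genes. Higher genes made up 31.4% of 2-fold differences there, in place of 19.1%. Medians of gene groups are therefore to be read against -0.21, the median of all genes.

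**Figure D1:**
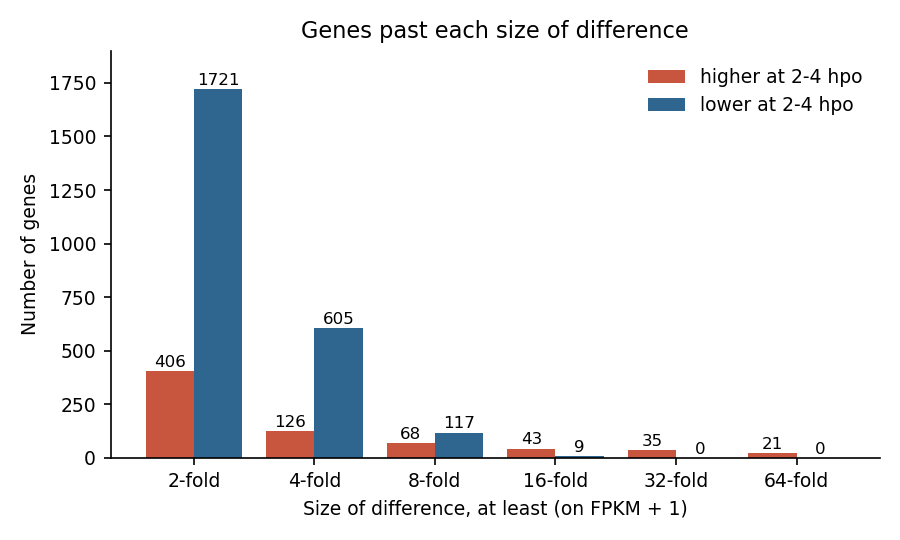
Number of genes (vertical axis) higher or lower at 2-4 hpo than at 0-1 hpo by at least the size on the horizontal axis, on FPKM + 1. Lower genes outnumber higher ones up to 8-fold, with 117 against 68, and at 16-fold the order is reversed, with 9 lower and 43 higher genes.

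The large losses were partial. None of the 605 lower genes had 0 reads at 2-4 hpo, but neither did any of the 7310 genes compared. At 1 FPKM or more there were still 578 of the 605, against 7114 of the 7310. Genes faint in eggs could not fall 4-fold on FPKM + 1, so they are outside this class. The median level of the 605 was 5.44 FPKM at 2-4 hpo and 38.0 FPKM at 0-1 hpo. What remained was 14.8% of the 0-1 hpo FPKM in the median gene, with a lowest value of 3.20%. Near loss was rare, with 25 genes below 1 FPKM at 2-4 hpo that had stood at 5 FPKM or more at 0-1 hpo. The most abundant of them in eggs, LOC109579824, had 128 reads at 2-4 hpo (0.982 FPKM) and 2625 at 0-1 hpo (19.2 FPKM), 19.6-fold lower (16.4 to 23.6). Below 0.5 FPKM at 2-4 hpo there were 2 such genes.

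The gains often started from few or no reads. Of the 126 higher genes, 87 were below 1 FPKM at 0-1 hpo, and 49 had 0 reads there, against 264 and 74 of all 7310. Genes this low in eggs were compared only because they reached 1 FPKM at 2-4 hpo, so the selection favours low starts. The median level of the 126 was 23.3 FPKM at 2-4 hpo and 0.0531 FPKM at 0-1 hpo. Among all models, 337 had at least 10 reads at 2-4 hpo and 0 at 0-1 hpo, while 15 had at least 10 reads at 0-1 hpo and 0 at 2-4 hpo. The most reads of any gene missing from the other library were 27494 at 2-4 hpo and 33 at 0-1 hpo.

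**Figure D2:**
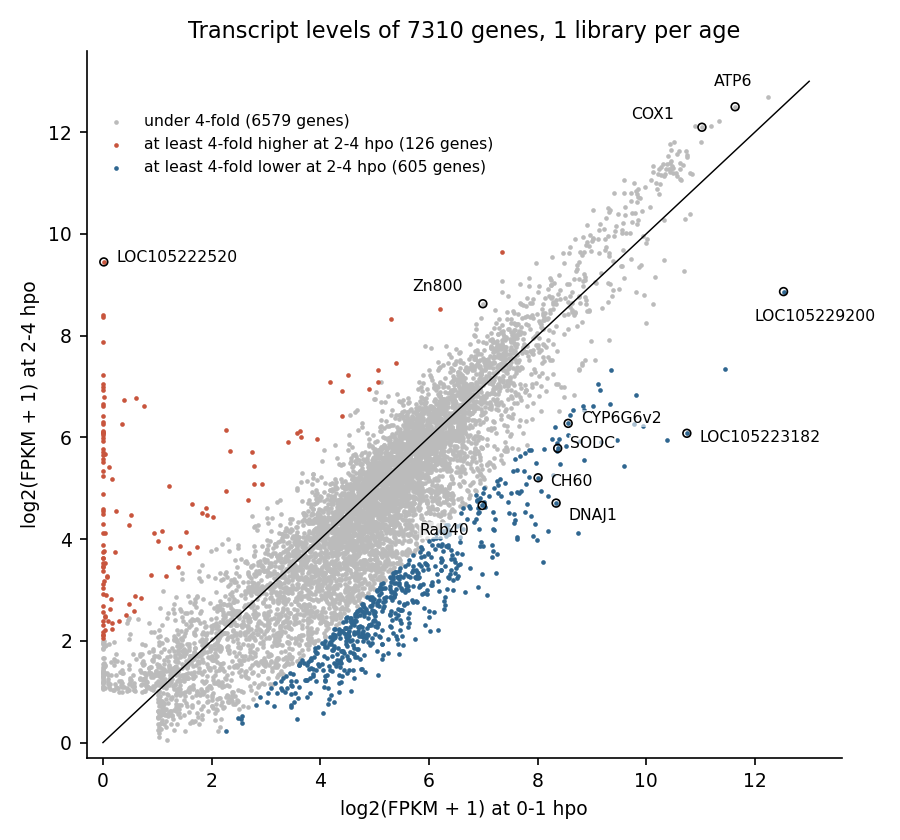
Levels of the 7310 genes as log2(FPKM + 1) at 2-4 hpo (vertical axis) against 0-1 hpo (horizontal axis), with the line of equal level and the genes past 4-fold in colour. The 126 higher genes include a column at 0 on the horizontal axis, whereas the 605 lower genes lie in a band below the line that stays above 0 on the vertical axis.

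Among genes at 10 FPKM or more in either library, the 10 largest gains were in genes known here by identifier or model number alone, and each was at 0, 1 or 2 reads in newly laid eggs. LOC105222520 lies on the minus strand of scaffold NW_011876243.1, at 138585 to 139951 in the coordinates of the deposited tables, whose genome build is unknown here. It had 62067 reads at 2-4 hpo (698 FPKM) and 1 read at 0-1 hpo. The ratio of its FPKM values, 64997, has an interval of 11665 to 2567280, set by the single read. LOC105232350 lies on the plus strand of NW_011876399.1, at 3052970 to 3054224. It had 27494 reads at 2-4 hpo (337 FPKM) and 0 at 0-1 hpo, at least 9597-fold higher when 3 reads are taken for the 0.

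Novel00344 is a model without a gene number on the plus strand of NW_011876380.1, at 1745885 to 1748570, and had 23678 reads at 2-4 hpo and 0 at 0-1 hpo. LOC105227927, listed as a pseudogene by RefSeq, reached 235 FPKM at 2-4 hpo, with 0 reads at 0-1 hpo. LOC105223040, LOC105227162, Novel00215, LOC105222229 and Novel00186 also had 0 reads at 0-1 hpo, and stood between 99.5 and 148 FPKM at 2-4 hpo. LOC105224843 had 12716 reads at 2-4 hpo and 2 at 0-1 hpo. High levels at 2-4 hpo and few or no reads in eggs follow from how these 10 genes were chosen.

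Another 15 of the 126 higher genes were already at 10 FPKM or more in newly laid eggs, and these gained less. Their folds lay between 4.16 for LOC105232528 and 8.34 for LOC105226703. LOC105228102, on the plus strand of NW_011876367.1 at 1051192 to 1056779, was the most abundant, at 799 FPKM at 2-4 hpo and 161 FPKM at 0-1 hpo, 4.97-fold higher (4.90 to 5.03). LOC105225896 stood at 367 FPKM at 2-4 hpo and 72.3 FPKM at 0-1 hpo, and LOC105226703 at 319 FPKM at 2-4 hpo and 38.3 FPKM at 0-1 hpo. Each reached 61.8 FPKM or more at 2-4 hpo, and the 15 were picked with their values in view.

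The 10 largest losses came from genes that had been abundant in eggs, and these genes are likewise known by identifier alone. Falls of this size on FPKM + 1 are out of reach for faint genes, so this abundance follows in part from how the 10 were chosen. LOC105223182 had 3131 reads at 2-4 hpo and 84557 at 0-1 hpo, and lies on the plus strand of NW_011876267.1, at 415874 to 416595. It stood at 66.6 FPKM at 2-4 hpo and 1719 FPKM at 0-1 hpo, 25.8-fold lower (24.9 to 26.7). LOC105227883, on the plus strand of NW_011876365.1 at 423510 to 424636, stood at 16.3 FPKM at 2-4 hpo and 429 FPKM at 0-1 hpo, 26.3-fold lower (24.7 to 27.9). LOC105222463 stood at 161 FPKM at 2-4 hpo and 2798 FPKM at 0-1 hpo, 17.4-fold lower (17.0 to 17.8).

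The other genes among the 10 were LOC105232243, LOC105232175, LOC105230470, LOC105222960, LOC105232017, LOC105233962 and LOC105228045. At 2-4 hpo they ranged from 3.61 FPKM for LOC105228045 to 60.3 FPKM for LOC105232175. At 0-1 hpo they ranged from 70.8 FPKM for LOC105228045 to 1333 FPKM for LOC105232175. LOC105232175 was 22.1-fold lower (21.2 to 23.0) and LOC105228045 19.6-fold lower (18.0 to 21.5). LOC105230470 overlaps a model on the opposite strand. The strand setting of the counting is unknown here, so reads of such partners cannot be told apart.

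The direction of the difference varied with the level of the gene, and the median was lowest between 10 and 100 FPKM. Of the 65 genes at 1000 FPKM or more in newly laid eggs, 51 were above their egg level at 2-4 hpo, with a median log2 difference of 0.80. The 4794 genes between 10 and 100 FPKM had a median of -0.32, and 1269 of them (26.5%) were at least 2-fold lower while 105 (2.19%) were at least 2-fold higher. Between 100 and 1000 FPKM the median of the 941 genes was -0.09, with 23.4% at least 2-fold lower and 4.25% at least 2-fold higher. Between 1 and 10 FPKM the median of the 1246 genes was -0.18, with 18.0% at least 2-fold lower and 6.82% at least 2-fold higher. The 264 genes under 1 FPKM in eggs had to reach 1 FPKM at 2-4 hpo to be compared, so all of them were higher by construction.

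The egg level enters both the grouping and the difference, so genes were also grouped by the mean of both libraries. The 82 genes with a mean of 1000 FPKM or more had a median log2 difference of 0.86, with 75 of them above 0. At a mean of 100 to 1000 FPKM the median was 0.15, at 10 to 100 FPKM -0.29 and at 1 to 10 FPKM also -0.29. Under both groupings the median lay above that of all genes, -0.21, for genes from 100 to 1000 FPKM and further above it for genes at 1000 FPKM or more.

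**Figure D3:**
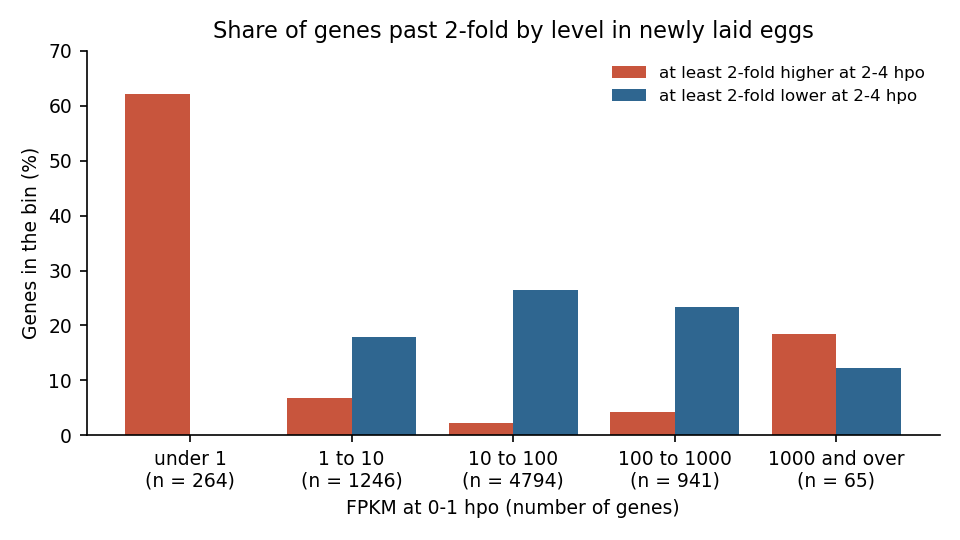
Percentage of genes (vertical axis) at least 2-fold higher or lower at 2-4 hpo, in bins of FPKM at 0-1 hpo (horizontal axis, with the number of genes). Between 10 and 100 FPKM 2.19% are higher and 26.5% lower, and at 1000 FPKM and over 18.5% are higher and 12.3% lower; the first bin can hold higher genes only.

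Reads were more concentrated in few genes at 2-4 hpo. The 100 genes with most reads took 26.7% of reads at 2-4 hpo and 19.7% at 0-1 hpo, and 50% of reads came from 418 genes at 2-4 hpo and 672 genes at 0-1 hpo. The 2 lists of 100 shared 64 genes, 64% of each. The 605 genes at least 4-fold lower took 1.54% of reads at 2-4 hpo and 11.2% at 0-1 hpo. The 126 genes at least 4-fold higher took 1.47% at 2-4 hpo and 0.145% at 0-1 hpo. The 280 genes between 2-fold and 4-fold higher took 13.5% of reads at 2-4 hpo and 5.76% at 0-1 hpo, and the 5183 genes within 2-fold took 78.6% at 2-4 hpo and 69.7% at 0-1 hpo. The genes with the largest folds thus held little of the gain in read share. Shares sum to 100% in each library, so a fall of some classes must raise others. The 5183 genes within 2-fold had a median log2 difference of -0.03.

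**Figure D4:**
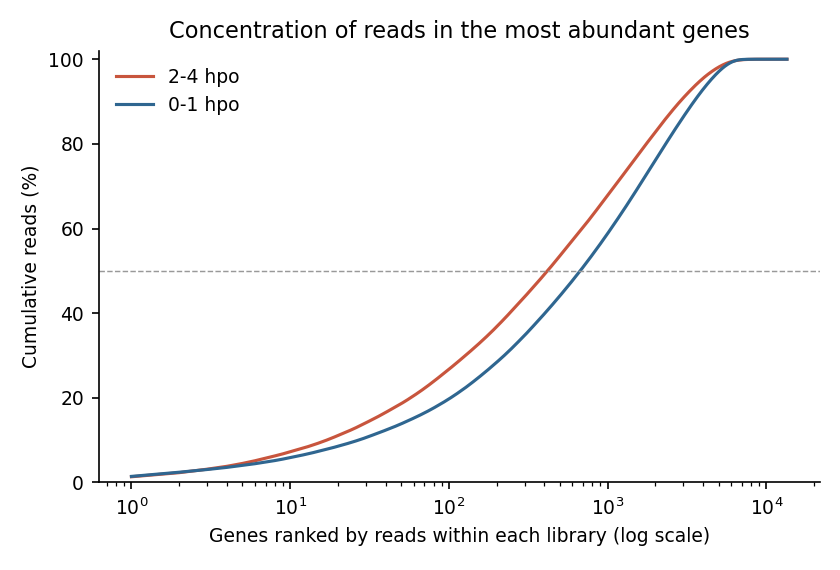
Cumulative percentage of reads (vertical axis) over genes ranked by reads within each library (horizontal axis, log scale). The 2-4 hpo curve lies above the 0-1 hpo curve, and the dashed line at 50% of reads is crossed at 418 genes at 2-4 hpo and 672 genes at 0-1 hpo.

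Among the genes with most reads some were far lower at 2-4 hpo and others moderately higher. LOC105229200 lies on the plus strand of NW_011876379.1 at 109502 to 112470. It had 73132 reads at 2-4 hpo and 971520 at 0-1 hpo, the most of any gene in eggs, and was 12.7-fold lower by FPKM (12.6 to 12.8). LOC105231371 stood at 73.6 FPKM at 2-4 hpo and 985 FPKM at 0-1 hpo, and LOC105233086 at 619 FPKM at 2-4 hpo and 1651 FPKM at 0-1 hpo. LOC105233054, which had the most reads at 2-4 hpo, was 1.36-fold higher than in eggs (1.35 to 1.36), with 871654 reads at 2-4 hpo and 673097 at 0-1 hpo. LOC105222162 was 2.44-fold higher, LOC105230085 2.33-fold, LOC105231189 1.94-fold and LOC105229679 1.26-fold. COX1 was the other one of the 5 most read genes at 2-4 hpo. A choice by reads in 1 library favours that library. Of the 100 genes with most reads in eggs, 59 were above their egg level at 2-4 hpo and 13 were at least 4-fold lower. LOC105229200, LOC105233054 and LOC105226703 each overlap a model on the opposite strand.

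Gene structure differed between the classes. A model was taken as intronless where exonic length and span were the same. Such models were 32 of the 126 genes past 4-fold higher (25.4%), 45 of the 605 past 4-fold lower (7.44%) and 566 of all 7310 (7.74%). Counted the other way, 5.65% of intronless models and 1.39% of models with an intron were at least 4-fold higher, while 7.95% of intronless models and 8.30% of models with an intron were at least 4-fold lower. The median span was 2031.5 bases in the higher genes, 2739 in the lower genes and 2917 in all genes compared. Across 5 equal groups by span, the share of genes at least 4-fold lower stayed between 7.66% and 9.22%, and the share at least 4-fold higher was 2.47%, 2.05%, 1.23%, 1.64% and 1.23% going to longer spans. Models without a gene number made up 21 of the 126 higher genes (16.7%), 6 of the 605 lower genes (0.992%) and 175 of all 7310 (2.39%). Of 33 long noncoding RNA genes compared, 6 were at least 4-fold higher (18.2%, against 1.72% of all genes) and 0 were lower by that much, against 8.28% of all genes. The source of the models without a gene number is unknown here, and whether these libraries were used to define them was not tested.

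The lower genes were spread over many scaffolds. The 31 scaffolds with at least 50 genes compared held 2604 of the 7310 genes. On each, more genes were at least 4-fold lower than higher, and the lower genes made up 3.77% to 14.5% of its genes. The median log2 difference of these scaffolds ranged from -0.54 to 0.03, and 16 of the 31 medians were below the median of all genes, -0.21. Of the 605 lower genes, 93 (15.4%) had another of them as the next model, in 48 pairs, 13 divergent, 11 convergent and 24 on the same strand. Of the 126 higher genes, 22 (17.5%) had another as the next model. For comparison, lower genes made up 8.28% of all genes compared and higher genes 1.72%, and both made up smaller shares of all 13489 models. A model can have a neighbour on either side. Whether such neighbours were more frequent than in a random order was not tested.

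Runs of at least 3 neighbouring models in the same class numbered 2 among the higher and 3 among the lower genes. The lower run with the largest folds lay on the minus strand of NW_011876398.1, at 4768292 to 4773075. In it LOC105232174 was 4.60-fold lower at 2-4 hpo (4.43 to 4.78), and its neighbours LOC105232243 and LOC105232175 were 25.5-fold (22.9 to 28.4) and 22.1-fold lower. On NW_011876145.1, 124654 to 149847, LOC105233405, LOC105233406 and LOC105233407 were 5.37-fold, 6.20-fold and 4.37-fold lower. On NW_011876359.1, 876333 to 898215, the folds were 4.47 for LOC105227549, 5.11 for LOC105227547 and 5.36 for LOC105227550, and the first and second of these overlap on opposite strands. The longer higher run held 8 models on NW_011876205.1, at 23.3 to 127 FPKM at 2-4 hpo and 0 to 2 reads at 0-1 hpo. Among these 8, 7 were intronless and 5 had no gene number. The other held 4 models on NW_011876086.1, at 7.70 to 99.5 FPKM at 2-4 hpo and 0 reads at 0-1 hpo. Of those 4, 2 were intronless and 2 had no gene number. Both runs are counted in the shares of intronless and unnumbered models among the 126 higher genes.

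The gene lists below hold only genes with an informative name. Outside the mitochondrial list, any family members known by identifier alone are therefore missing. Of the 76 genes with an informative name, 64 could be compared. None of them was at least 4-fold higher at 2-4 hpo and 5 were at least 4-fold lower, against 1.72% and 8.28% of all genes. At 2-fold 4 were higher (6.25%) and 14 lower (21.9%), shares close to those of all genes, 5.55% and 23.5%. Their median log2 difference was 0.03, against -0.21 over all genes. The 13 mitochondrial genes described next are among the 64 and had a median of 0.85. They include 3 of the 4 named genes at least 2-fold higher.

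The mitochondrial genome holds 13 protein-coding genes, which encode subunits of the respiratory chain and the ATP synthase. At 2-4 hpo 3 of them were at least 2-fold higher, 0 were at least 2-fold lower, and 12 had a log2 difference above 0, with a median of 0.85 against -0.21 over all genes. Over all genes the 2-fold shares were 5.55% higher and 23.5% lower. ND4 stood at 299 FPKM at 2-4 hpo and 115 FPKM at 0-1 hpo, 2.59-fold higher (2.54 to 2.65). COX1 stood at 4378 FPKM at 2-4 hpo and 2084 FPKM at 0-1 hpo, and CYTB at 1171 FPKM at 2-4 hpo and 568 FPKM at 0-1 hpo. The count past 2-fold depended on the scaling. It was 1 of 13, ND4, on the TPM scale, where levels sum to the same total in each library, and 9 of 13 after median-of-ratios scaling. ND5 was 2.00-fold higher by FPKM and just short of 2-fold on FPKM + 1, and COX3, ATP6, ND2, ATP8, COX2 and ND1 were between 1.83-fold and 1.58-fold higher. The lowest were ND6, 1.26-fold higher, ND4L, 1.17-fold higher, and ND3, which stood at 657 FPKM at 2-4 hpo and 749 FPKM at 0-1 hpo. The sign for ND3 depended on the scaling, with log2 differences from -0.28 on the TPM scale to 0.05 after median-of-ratios scaling. Together these genes took 1.96% of reads at 2-4 hpo and 1.04% at 0-1 hpo.

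Chaperones are proteins that help others fold. Of the 4 named chaperone genes, 2 were at least 2-fold lower at 2-4 hpo and 0 at least 2-fold higher. Over all genes the shares were 23.5% lower and 5.55% higher. DNAJ1, which encodes an Hsp40-type co-chaperone, had 3035 reads at 2-4 hpo and 40897 at 0-1 hpo. CH60, the chaperonin Hsp60 of mitochondria, had 4286 reads at 2-4 hpo and 32094 at 0-1 hpo. These are losses of 12.9-fold (12.4 to 13.4) and 7.15-fold (6.93 to 7.38). DNJC8, another J-domain protein gene, stood at 35.5 FPKM at 2-4 hpo and 46.0 FPKM at 0-1 hpo, and DJB12 at 155 FPKM at 2-4 hpo and 152 FPKM at 0-1 hpo. The sign for DJB12 changed on the TPM scale, where its log2 difference was -0.06. The median of the list was -1.59, against -0.21 over all genes.

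Among 6 genes for redox enzymes and detoxification, none was 2-fold higher at 2-4 hpo and 3 were at least 2-fold lower, against 5.55% higher and 23.5% lower over all genes. Their median log2 difference was -1.14, against -0.21 over all genes. The copper-zinc superoxide dismutase genes SODC and Zn-CuSOD, whose products remove superoxide, were both lower. SODC stood at 54.1 FPKM at 2-4 hpo and 330 FPKM at 0-1 hpo, 6.10-fold lower (5.86 to 6.35). Zn-CuSOD stood at 12.2 FPKM at 2-4 hpo and 41.8 FPKM at 0-1 hpo, 3.44-fold lower (3.16 to 3.74). P450 enzymes oxidise foreign compounds and hormones with electrons from a reductase, which NCPR encodes. The P450 gene CYP6G6v2 stood at 76.4 FPKM at 2-4 hpo and 377 FPKM at 0-1 hpo, and NCPR at 311 FPKM at 2-4 hpo and 261 FPKM at 0-1 hpo, so the pair differed in direction. The glutathione transferase genes differed too. GST stood at 76.2 FPKM at 2-4 hpo and 114 FPKM at 0-1 hpo, and GSTT1 was 1.54-fold higher (1.43 to 1.65).

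Rab proteins are small GTPases that direct vesicles between compartments of the cell. Of 5 Rab genes, 2 were at least 2-fold lower at 2-4 hpo and 0 at least 2-fold higher, against 23.5% and 5.55% over all genes. Their median log2 difference of -0.24 was close to that of all genes, -0.21. Rab40 stood at 24.3 FPKM at 2-4 hpo and 125 FPKM at 0-1 hpo, 5.15-fold lower (4.89 to 5.43), and Rab5b, a GTPase of early endosomes, at 26.1 FPKM at 2-4 hpo and 70.1 FPKM at 0-1 hpo. The other 3 differed little. Rab35, which acts at the plasma membrane and endosomes, stood at 104 FPKM at 2-4 hpo and 123 FPKM at 0-1 hpo. Rab1a, of transport between endoplasmic reticulum and Golgi, stood at 209 FPKM at 2-4 hpo and 187 FPKM at 0-1 hpo. Rab7, of late endosomes, stood at 143 FPKM at 2-4 hpo and 122 FPKM at 0-1 hpo.

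Of 3 genes for DNA-binding regulators 1 was at least 2-fold higher at 2-4 hpo and 2 were at least 2-fold lower, against 5.55% and 23.5% over all genes. Zn800, named after a zinc finger protein, was the named gene with the largest gain, at 394 FPKM at 2-4 hpo and 126 FPKM at 0-1 hpo, 3.12-fold higher (3.08 to 3.16). E4f1, a zinc finger regulator in other species, and Adf1, a transcription factor of the alcohol dehydrogenase gene in Drosophila, were lower. E4f1 stood at 6.98 FPKM at 2-4 hpo and 21.0 FPKM at 0-1 hpo, and Adf1 at 11.0 FPKM at 2-4 hpo and 31.5 FPKM at 0-1 hpo. Of the RNA-binding genes, tra-2, a splicing regulator in fly sex determination, stood at 122 FPKM at 2-4 hpo and 97.1 FPKM at 0-1 hpo. Prkra, which has the synonym R2D2, a partner of Dicer-2 in Drosophila, stood at 30.0 FPKM at 2-4 hpo and 38.9 FPKM at 0-1 hpo. In insulin signalling, the kinase gene Akt1 was 2.30-fold lower (2.25 to 2.35) while Irs1, for an insulin receptor substrate, was 1.15-fold higher (1.12 to 1.19). After median-of-ratios scaling the log2 difference of Akt1 was -0.95, short of 2-fold.

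**Figure D5:**
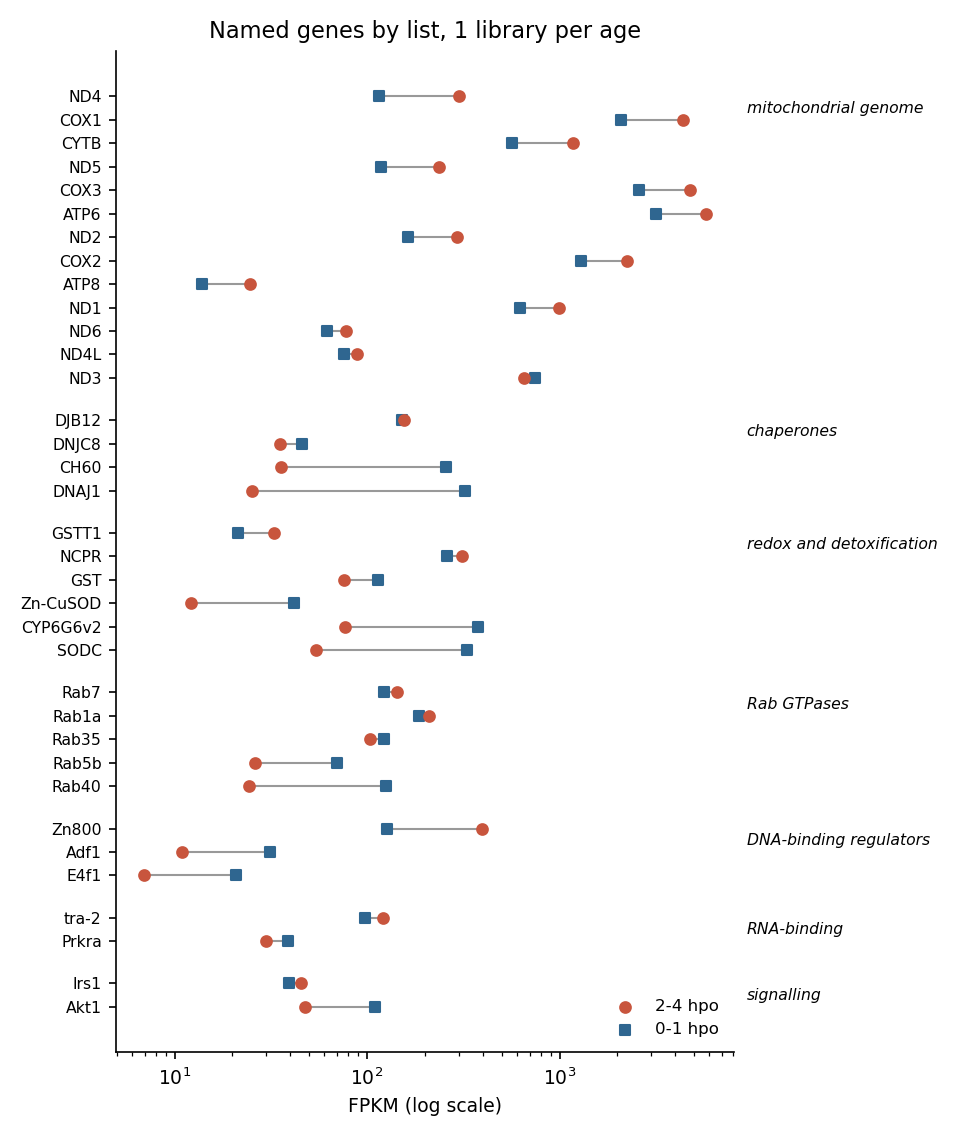
Level in FPKM (horizontal axis, log scale) at 2-4 hpo (circles) and 0-1 hpo (squares) of the genes in 7 lists, 1 library per age. Of the 13 mitochondrial genes 12 lie to the right at 2-4 hpo, and the widest gap is that of DNAJ1, at 25.1 FPKM at 2-4 hpo and 323 FPKM at 0-1 hpo.

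Other named genes among the largest differences belong to none of these lists. On the higher side were TREA, which encodes trehalase, at 45.9 FPKM at 2-4 hpo and 27.9 FPKM at 0-1 hpo, Pgbd4, named after a piggyBac transposase-derived protein, at 54.9 FPKM at 2-4 hpo and 34.3 FPKM at 0-1 hpo, and Csga, 1.46-fold higher (1.37 to 1.55). On the lower side L12r1 and Ygr4 were both 2.59-fold lower, Cg050 was 2.06-fold lower, Cc115 1.59-fold and Tysd1 1.57-fold. Taiman, a steroid receptor coactivator gene in Drosophila that did not reach 10 FPKM and was added after its values were seen, stood at 1.79 FPKM at 2-4 hpo and 7.98 FPKM at 0-1 hpo. Of the named genes given, TREA, Pgbd4, Csga, Zn-CuSOD, E4f1, Adf1, L12r1, Ygr4, Cc115, Tysd1, DNJC8, Rab7 and Prkra overlap a model on the opposite strand, and reads of the partners cannot be told apart.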

How the data were processed

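RNA of whole embryos was sequenced, 1 library each. Per the protocols in the labels, poly-T beads selected messenger RNA and random hexamers primed the complementary DNA. Per the submitters' processing notes, the tools were HISAT2 2.0.4, which aligns reads, and HTSeq 0.9.1, which counts them. For settings, strand mode, genome build and annotation nothing is given in the sources used here. Deposited by the authors were FPKM values of 13489 models and, per the file headers, raw read counts beside each model's position and exonic length. The length implied by FPKM and count differed by over 0.1% from the listed one for 2472 of 9540 genes. This affects levels but not plain ratios of FPKM. On log2(FPKM + 1), listed lengths gave 125 higher and 603 lower genes at 4-fold, against 126 and 605 as reported. The 5-8 hpo table served for positions only.

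Names came from RefSeq genes of assembly ASM2337382v1, which matched 11887 identifiers, 76 with an informative name. Differences are 2-4 hpo minus 0-1 hpo on log2(FPKM + 1), which understates low genes. Folds of single genes are ratios of FPKM with exact conditional binomial intervals of the counts. Named are the 15 largest rises and 15 largest falls among named genes and 10 of each among all genes at 10 FPKM or more, the 5 most read genes of each library, and list members at 5 FPKM or more. Of the lists written, those for the cell cycle, histones, ribosomal proteins and proteases matched no name. Members and lists were chosen with earlier results of these data known. Promoters and proteins were not analysed here. The calls and intervals were run on simulated counts with counting error only, with known folds placed in well read genes. Such a run covers neither replicate spread nor genes with few reads. Python 3.11.15, pandas 2.3.3, numpy 2.4.6 and scipy 1.17.1 were used. Alternatives were another pseudocount, other filters, TPM, median-of-ratios scaling, RPM, FPKM recomputed from counts, and fewer models.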

Additional observations from a re-analysis of the deposited data

How the results depend on the processing

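Of 55 values of counts and medians under the alternatives, 45 stayed within 1.5 times the reported count or at the reported median. Genes at least 4-fold higher numbered 207, against 126 as reported, when 0.1 was added to FPKM, since a smaller addition lets lower genes reach 4-fold. Median-of-ratios scaling gave 644 in place of 406 genes at least 2-fold higher, by the shift of all genes. It also gave 141 higher and 455 lower genes at 4-fold, all 126 reported higher and 455 of the 605 reported lower genes among them. The median difference of all genes was -0.29 on the TPM scale, 0.018 after median-of-ratios scaling and -0.19 on RPM. The value after median-of-ratios scaling is near 0 by construction. Genes at 5 FPKM or more at 0-1 hpo and below 1 FPKM at 2-4 hpo, 25 as reported, numbered 13 on the TPM scale, 16 after median-of-ratios scaling, 13 without models that overlap another (added after seeing the data), 15 with 10 FPKM in place of 5, and 2 with 0.5 FPKM in place of 1. Leaving out the filter changes no 2-fold or 4-fold count by construction. Recomputed FPKM use the same read counts, so they could move little. The values under both of these settings are among the 45. Of 71 single genes, 0 of those past 2-fold changed sign, and ND3 and DJB12 were the 2 smaller ones whose sign differed. No paired analysis was possible because neither age had more than 1 library. For genes without reads, depth sets a limit of 0.0461 RPM at 2-4 hpo and 0.0440 RPM at 0-1 hpo.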
